A study of Mus musculus with 8 samples.

Results

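The contractile machinery of smooth muscle was followed through 9 genes: Acta2, Myh11, Tagln, Cnn1, Smtn, Mylk, Lmod1, Actg2 and Myocd. They were chosen by name, as the classical markers of differentiated smooth muscle, out of 19990 gene symbols that the array's RefSeq accessions gave, and all 9 had at least 1 probe. The choice was made with earlier results of these same hearts in view, so the differences between groups are given for these genes as a description and not as a test. RNA came from hearts of male C57BL6 mice, 4 dtg and 4 control samples, each on its own 1-colour array. The dtg mice were merCremer/+ IGFloxP/IGFloxP, so that they carried an inducible Cre recombinase and floxed alleles of the insulin-like growth factor 1 receptor gene, Igf1r. The control mice were Cre positive without floxed Igf1r. Both groups received 4OH-tamoxifen at 8 months of age, 500 µg a day on 10 days in a row, a treatment aimed at exon 3 of Igf1r, and 6 weeks later the hearts were collected. The labels used here do not name the promoter that drives merCremer, so which cells of the heart recombined is not given. They also do not say that each sample is a separate animal, so every p-value below reflects how far these 8 samples scattered, and that scatter may be technical.

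In the heart, smooth muscle lies in the walls of coronary arteries and veins and of the great vessels at the base. Its contraction is switched on when calcium and calmodulin activate myosin light chain kinase, which phosphorylates the regulatory light chain of smooth muscle myosin so that the myosin can pull on actin filaments. Many genes of this apparatus are activated by serum response factor (SRF), which binds a DNA element called the CArG box together with its coactivator myocardin. Acta2 can also be made by activated fibroblasts and by immature or stressed cardiomyocytes, and myocardin is present in cardiomyocytes as well. A whole heart is a mixture, and in bulk RNA fewer smooth muscle cells and less RNA per smooth muscle cell cannot be told apart.

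The upstream region of Acta2, the gene with the clearest separation of the groups, is shown because it holds stretches that resemble the CArG box. RefSeq gives it, on GRCm38.p6, as the 250 bases before the start of the gene, chr19:34255374-34255623 on the minus strand, written 5′ to 3′ with 2 CArG-like stretches in capitals.
Acta2: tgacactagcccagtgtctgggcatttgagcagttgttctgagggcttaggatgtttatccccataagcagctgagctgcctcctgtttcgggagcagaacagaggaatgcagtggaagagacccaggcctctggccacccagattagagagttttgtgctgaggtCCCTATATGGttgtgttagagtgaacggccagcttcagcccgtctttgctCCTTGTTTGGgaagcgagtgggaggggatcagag
The first capital run, CCCTATATGG, lies 84 to 75 bases before the RefSeq start and the second, CCTTGTTTGG, 34 to 25 bases before it. Each keeps the CC and GG ends of the CArG box and has 1 G or C within its core. That looser form was found in 2792 of 32851 RefSeq promoters (8.5%), searched on both strands from 250 bases before to 50 after the start, and the strict form in 535 (1.63%). The promoter table held 5 of the 9 genes, namely Acta2, Cnn1, Smtn, Mylk and Lmod1. The strict form was in 0 of the 5 and the looser form in 1, Acta2. The MCAT element CATTCC was in 4 of the 5, against 14.7% of all promoters, and the E box CANNTG in 4 of the 5, against 72.3%. The motifs searched did not overlap in these 5 promoters, and a match or its lack in this window is a description of letters alone.

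Values are log2 processed signals from which the array's own 75th percentile was subtracted, so that 0 is the signal that 75% of spots lie below. Signals of different probes are not compared with each other, because probes differ in how strongly they bind. Between 59.1% and 71.5% of 39429 probes were well above background on an array, 21434 features were tested, and no spot outside the controls was saturated. The arrays lay on 2 slides with 2 dtg and 2 control hearts each: slide 2 held dtg 2, dtg 3, control 3 and control 4, and slide 1 the others. Igf1r, the targeted gene, had a single probe with values between -0.41 and 0.30 in dtg hearts and between 0.064 and 0.92 in control hearts, ranges that overlap. Whether that probe lies in exon 3 is not given in the files, so it does not check the deletion. Markers of ventricular cardiomyocytes summed to 2623 to 2956 times the 75th percentile in dtg hearts and to 2697 to 2936 in control hearts, and 7 of the 7 listed were measured, among them the myosins Myh6 (difference -0.029) and Myl2 (-0.012).

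Of the 9 genes, 8 were well above background on all 8 arrays and 1, Lmod1, on none. Lmod1 encodes leiomodin 1, which nucleates actin filaments in smooth muscle. Its single probe gave 4.52, 12.5, 10.1 and 9.19 intensity units in dtg hearts 1 to 4, against 14.0, 3.69, 16.4 and 5.12 in control hearts 1 to 4. Those values carry no level on either side, and no fold is given.

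Acta2 encodes smooth muscle alpha-actin, the main actin of vascular smooth muscle. It stood at 3.55, 3.38, 3.43 and 3.62 in dtg hearts 1 to 4, against 3.99, 3.71, 3.89 and 3.85 in control hearts 1 to 4. The highest dtg heart, dtg 4, lay below the lowest control heart, control 2, so the groups did not overlap. The means were 3.49 ± 0.11 in dtg hearts and 3.86 ± 0.12 in control hearts (SD, n = 4 each), a log2 difference of -0.37 (standard error 0.11), or 0.776 times the control level. Its probe was printed in 10 spots per array, whose signals varied by 3.41% to 5.23% of their mean (coefficient of variation within an array). That figure covers spot error within an array and not the scatter between hearts. Between groups lay 77.7% of the variance of Acta2, and between slides 3.35%. The difference was -0.46 within slide 2 and -0.27 within slide 1. Before scaling, the groups overlapped: the signals were 10710, 10407, 9278 and 9252 intensity units in dtg hearts 1 to 4 and 13686, 11575, 15229 and 10652 in control hearts 1 to 4. With normexp background correction the difference was -0.11, and it was -0.37 when that correction left out spots darker than their own background.

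Across all features, 0 of 21434 passed limma's test of dtg against control after Benjamini-Hochberg adjustment (0%), and 163 (0.76%) had an unadjusted p below the 0.05 threshold. Groups without overlap and lower in dtg hearts were found in 35 features (0.163%), Acta2 among them. It was the 1 gene of the 8 measured here with that separation, and it was picked out after its values were known. Its value is also a mean of 10 spots per array, whereas each probe of the other genes was printed in 1 spot.

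**Figure D1:**
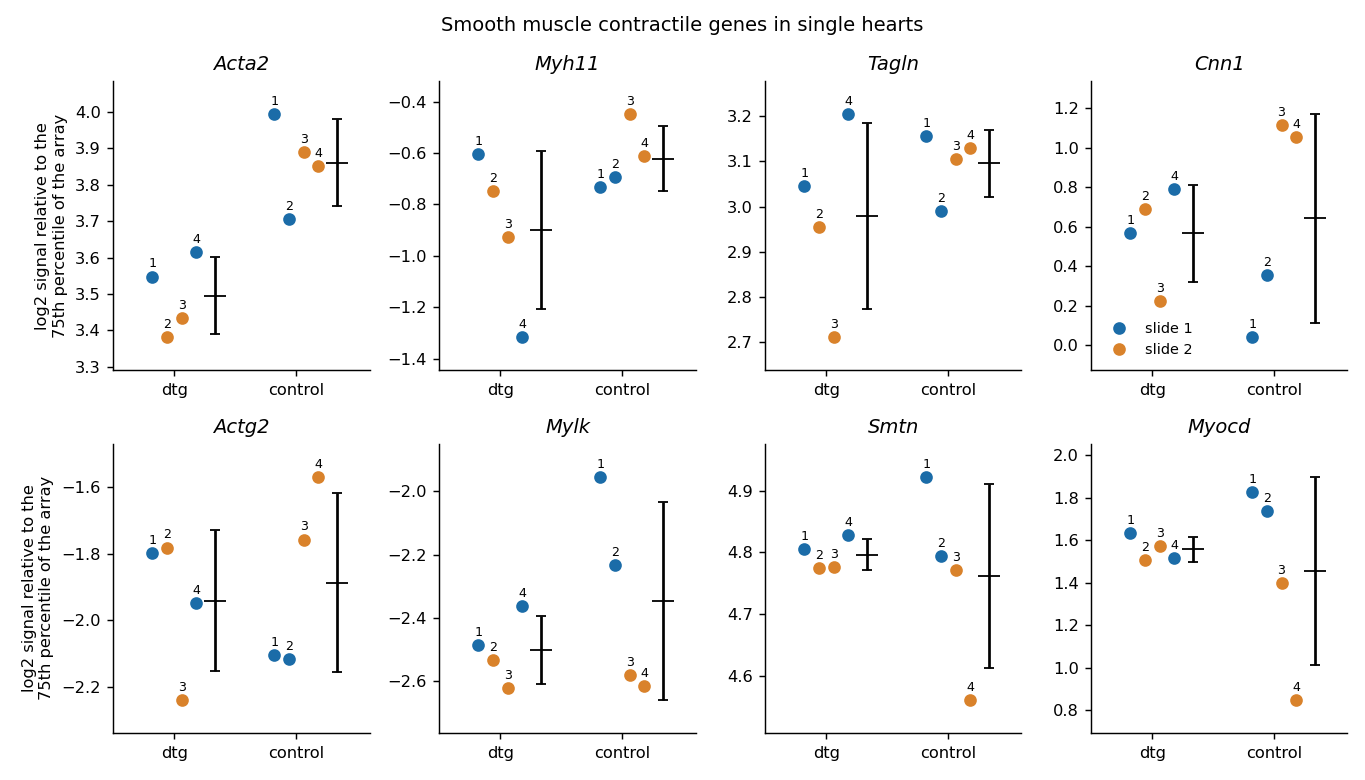
Scaled log2 signal (vertical axes, 0 being the array's 75th percentile, ranges differing by gene) for the 8 measured genes in dtg hearts (left) and control hearts (right). Points are single hearts labelled by replicate number and coloured by slide, and the bars are the mean and SD of 4 hearts. Acta2 shows no overlap between the groups (dtg at most 3.62, control at least 3.71), whereas the groups overlap for the other 7 genes.

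Myosin and its activating kinase come next in the apparatus. Myh11 encodes the smooth muscle myosin heavy chain, the most restricted marker of the lineage. It measured -0.60, -0.75, -0.93 and -1.32 in dtg hearts 1 to 4, against -0.73, -0.69, -0.45 and -0.61 in control hearts 1 to 4. The dtg hearts spread widely, with dtg 1 above 3 of the 4 control hearts and dtg 4 lowest of all. The means were -0.90 ± 0.31 in dtg hearts and -0.62 ± 0.13 in control hearts (SD, n = 4 each), a difference of -0.28 (standard error 0.17) that was -0.31 within slide 2 and -0.25 within slide 1. Without dtg 4 the difference was -0.14, and in a slide-blocked fit that left out dtg 3, dtg 4 and control 4 it was -0.065.

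Mylk encodes myosin light chain kinase. It read -2.48, -2.53, -2.62 and -2.36 in dtg hearts 1 to 4, against -1.95, -2.23, -2.58 and -2.61 in control hearts 1 to 4. Control hearts 1 and 2 were the highest and controls 3 and 4 lay among the dtg hearts. The difference was -0.16 (standard error 0.16), with 0.019 within slide 2 and -0.33 within slide 1. Without control 1 it was -0.025.

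Tagln and Cnn1 encode transgelin and calponin 1, related proteins that bind actin filaments, calponin being an inhibitor of the myosin ATPase. Tagln stood at 3.05, 2.95, 2.71 and 3.20 in dtg hearts 1 to 4, against 3.16, 2.99, 3.11 and 3.13 in control hearts 1 to 4. Both the lowest heart (dtg 3) and the highest (dtg 4) were dtg hearts. The difference was -0.12 (standard error 0.13), and it changed direction between slides, with -0.29 within slide 2 and 0.052 within slide 1. Without dtg 3 it was -0.028. Cnn1 measured 0.57, 0.69, 0.22 and 0.79 in dtg hearts 1 to 4, against 0.042, 0.36, 1.11 and 1.05 in control hearts 1 to 4. The control hearts fell into a low pair on slide 1 and a high pair on slide 2, and the dtg hearts lay inside their range. Its difference was -0.075 overall (standard error 0.26), -0.63 within slide 2 and 0.48 within slide 1. It was -0.27 without control 1 but 0.040 without dtg 3, 0.083 without control 3 and 0.063 without control 4. The change between slides was tested with limma's interaction term, which gave Cnn1 an adjusted p of 0.804 over all features. Its unadjusted p of 0.00902 was the smallest of the 8 genes, the other 7 lying between 0.0732 and 0.868. Over all features, 1 of 21434 passed that test after adjustment (0.00467%) and 978 (4.56%) had an unadjusted p below 0.05.

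Actg2 encodes the gamma-actin of enteric and other visceral smooth muscle. It read -1.80, -1.78, -2.24 and -1.95 in dtg hearts 1 to 4, against -2.10, -2.12, -1.76 and -1.57 in control hearts 1 to 4. Control hearts on slide 2 were highest, those on slide 1 lay low, and dtg 3 was lowest. As for Cnn1, the control pair on slide 2 lay above the control pair on slide 1. The difference was -0.055 (standard error 0.17), with -0.35 within slide 2 and 0.24 within slide 1. It was 0.044 without dtg 3 and 0.051 without control 4. Actin genes resemble each other closely in coding sequence, and cross-binding of the actin probes was not tested.

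Smtn encodes smoothelin, an actin-associated protein of contractile smooth muscle, and it had 2 probes from different transcripts. The probe with the higher signal, used in the tests, stood at 4.81, 4.77, 4.78 and 4.83 in dtg hearts 1 to 4, against 4.92, 4.79, 4.77 and 4.56 in control hearts 1 to 4. The dtg hearts were nearly equal (SD 0.025) and lay inside the range of the control hearts (SD 0.15). The difference was 0.034 (standard error 0.11), and -0.033 without control 4. The other probe gave 1.85, 1.87, 1.91 and 1.55 in dtg hearts 1 to 4, against 1.86, 1.80, 1.90 and 1.63 in control hearts 1 to 4, a difference of -0.0052. The 2 probes disagreed in dtg 4, which was the second-highest heart by the one and the lowest by the other.

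Myocd encodes myocardin, the SRF coactivator that drives this gene programme. It measured 1.63, 1.51, 1.57 and 1.52 in dtg hearts 1 to 4, against 1.83, 1.74, 1.40 and 0.85 in control hearts 1 to 4. The dtg hearts again clustered tightly (SD 0.059) while the control hearts included both the highest and the lowest of the 8 (SD 0.44). The difference was 0.10 (standard error 0.21), with 0.42 within slide 2 and -0.21 within slide 1. Without control 4 it was -0.097.

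The difference was negative for 6 of the 8 measured genes and positive for Smtn and Myocd, while 42.6% of all features had a negative difference. The median difference of the 8 was -0.096, against 0.021 over all features, and the median standard error over all features was 0.178. Acta2 and Myh11 kept the same direction on both slides. The other 6 genes changed direction between the slides. The median of the 8 was -0.30 within slide 2 and -0.12 within slide 1, and it was 0.0062 without dtg 3.

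**Figure D2:**
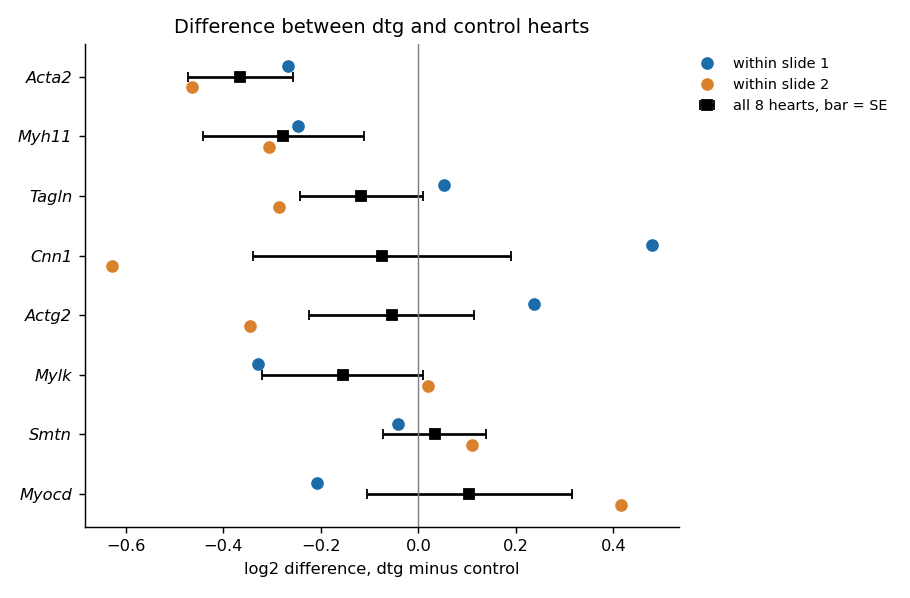
Log2 difference between dtg and control hearts for the 8 measured genes (horizontal axis, dtg minus control). Black squares with bars are the difference over all 8 hearts with its standard error, and coloured points are the differences within each slide. Acta2 (-0.37) and Myh11 (-0.28) lie left of 0 on both slides, and the points of the other 6 genes fall on both sides of 0.

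Slide was compared with limma in a model that held group as well. Between the slides, 2210 of 21434 features (10.3%) passed the adjusted threshold and 0 of the 8 genes did. At an unadjusted p below 0.05 the share was 20.9% of all features, and Mylk was the 1 gene of the 8. Mylk averaged -2.59 on slide 2 and -2.26 on slide 1, a difference of -0.33 with a standard error of 0.12 (limma adjusted p = 0.168), and 57.5% of its variance lay between slides. Myocd averaged 1.33 on slide 2 and 1.68 on slide 1, a difference of -0.35 (limma adjusted p = 0.335), and Cnn1 averaged 0.77 on slide 2 and 0.44 on slide 1. The slide difference was negative for 5 of the 8 genes, against 54.2% of all features. Those of Acta2 (-0.076), Tagln (-0.12) and Smtn (-0.12) turned positive when arrays were scaled to their medians (0.19, 0.14 and 0.15). The median share of variance between slides was 19.6% for the 8 genes and 17.0% for all features, and between groups 8.18% for the 8 genes and 2.92% for all features.

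Single hearts differed in which genes they held high. In dtg 3, 7 of the 8 genes lay below their mean over the 8 hearts, with a median deviation of -0.22, and Tagln, Mylk and Actg2 had their lowest value there. The remaining dtg hearts had 4 or 5 genes above their means and median deviations from -0.0020 to 0.030. Control 1 had 6 genes above their means and held the highest value of Acta2, Smtn, Mylk and Myocd, and at the same time the lowest Cnn1. Control 4 held the lowest Smtn and Myocd and the highest Actg2. The within-group SD was largest for Cnn1 (0.41) and Myocd (0.32) and had a median of 0.23 over the 8 genes, against 0.26 over all features. Smtn varied less over the 8 arrays than most features: 5.52% of all features had a smaller SD.

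**Figure D3:**
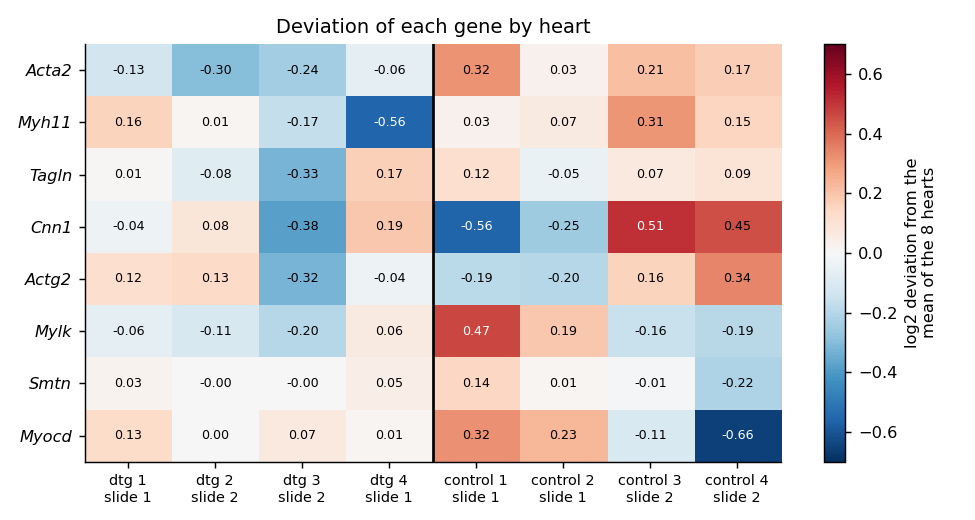
Deviation of each gene in each heart from the gene's mean over the 8 hearts, on the log2 scale (colour and number), with dtg hearts left of the line and control hearts right of it. Acta2 is below its mean in all 4 dtg hearts. Dtg 3 is at or below 0 for 7 of the 8 genes, and Myocd in control 4 has the lowest value of the map, -0.66.

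Co-variation was measured as Pearson's r and Spearman's rho with Acta2 over the 8 hearts, for each of 21405 other features, with two-sided exact permutation p-values over all orderings. No feature passed the adjusted threshold (0%), 268 (1.25%) had an unadjusted p below 0.05, and 47.5% had a positive r. With 8 arrays the exact permutation p cannot fall below 4.96e-05. Among 21405 features no single feature could therefore pass on its own, whatever its r. The adjusted values thus cannot decide whether a feature moves with Acta2. Because Acta2 differed between the groups, r within the groups, after the group means were removed, is given as well. Tagln was the closest of the 7 other genes. Its r with Acta2 was 0.66 (exact permutation p = 0.0631, adjusted p = 1) and its rho was 0.67 (exact permutation p = 0.0831). It was 0.71 within the groups and 0.64 without the 2 hearts farthest from the median of Acta2, control 1 and dtg 2, and 99.2% of all features had a lower r.

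Mylk had an r of 0.48 and a rho of 0.36 with Acta2 (exact permutation p = 0.232 for r). Without control 1 and dtg 2 its r was -0.072. Left out alone, control 1 gave 0.017 and dtg 2 gave 0.45, so that relation rests on control 1. Myh11 had an r of 0.38 and a rho of 0.45 (exact permutation p = 0.377 for r), but -0.30 within the groups. Actg2 (r = 0.15), Cnn1 (r = 0.11) and Smtn (r = 0.0092) were near 0 and Myocd was at -0.14, with exact permutation p-values from 0.71 to 0.985. Without control 1 and dtg 2, Cnn1 reached 0.83, Actg2 0.71 and Myocd -0.59, and without control 1 alone they were at 0.68, 0.46 and -0.53. Without control 4, Smtn reached 0.62 and Myocd 0.34. In all, 6 of the 7 had a positive r, with a median of 0.15 against -0.019 over all features.

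**Figure D4:**
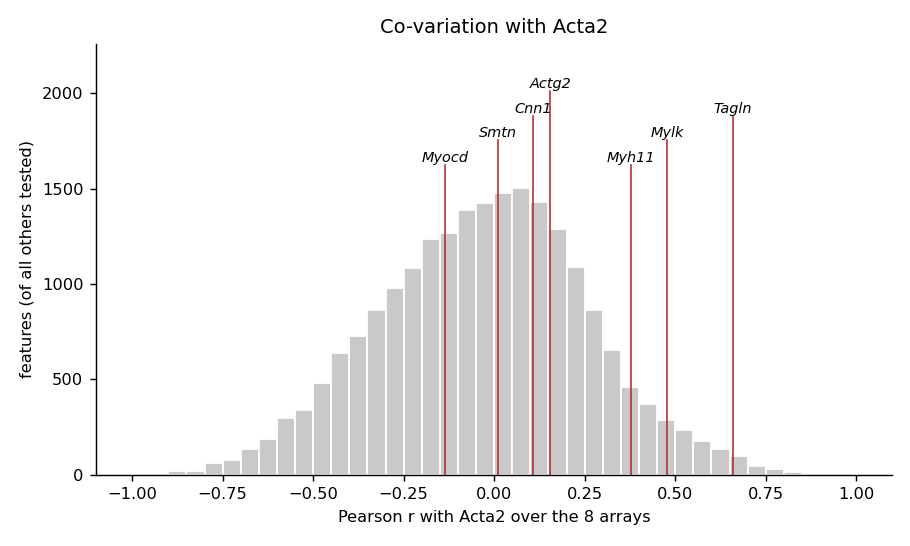
Distribution of Pearson's r with Acta2 over the 8 arrays for all other features (grey bars, number of features per bin of r), with the 7 other measured genes as red lines whose heights only separate the labels. Tagln (0.66) lies in the upper tail, and Cnn1, Actg2, Smtn and Myocd lie between -0.14 and 0.15, in the bulk of the features.

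The 8 named features most like Acta2 across the hearts held none of the 9 genes. They were Fabp7, a fatty acid binding protein (r = 0.96, 0.79 within groups), Pcdhb7, a protocadherin (0.93, 0.69 within groups), and Slc17a7, a vesicular glutamate transporter (0.92, 0.84 within groups). Next came Tm4sf1, a tetraspanin-like membrane protein of endothelial cells (0.90, 0.93 within groups), and Gys1, the muscle glycogen synthase (0.89, but 0.33 within groups). Pam followed (0.87, 0.85 within groups), a peptide-amidating enzyme abundant in atrial cardiomyocytes and a member of the atrial list used here. Acot2, a mitochondrial acyl-CoA thioesterase, and Timd4, a macrophage receptor for phosphatidylserine, closed the list (0.87 each, 0.57 and 0.70 within groups). The lowest were Rpl41, Nup43, Sla and Clec4a3 (-0.90 each, and -0.46, -0.92, -0.52 and -0.72 within groups). All 12 had an adjusted p of 1, and they were named by rank alone.

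Tm4sf1 shows what such a profile looks like. It stood at 4.22, 4.11, 4.02 and 4.30 in dtg hearts 1 to 4, against 4.44, 4.18, 4.36 and 4.34 in control hearts 1 to 4. Hearts dtg 2 and dtg 3 were low and control 1 was highest, as for Acta2, although the groups overlapped. Fabp7 measured -3.87, -3.97, -3.85 and -3.75 in dtg hearts 1 to 4, against -3.20, -3.45, -3.46 and -3.35 in control hearts 1 to 4, without overlap.

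Among the 8 measured genes, 16 of 28 pairs had a positive r, with a median of 0.077. The pairs named here were picked after their values were seen. Smtn stands in them for its probe with the higher signal alone. Its other probe, which disagreed in dtg 4, was not set against the other genes, so the Smtn pairs hold for that 1 probe. Cnn1 and Actg2 moved together (r = 0.85, rho = 0.83), also without control 4 (0.80). Of all features, 1.15% had a higher r with Cnn1 than Actg2 did, and 0.285% a higher r with Actg2 than Cnn1 did. Smtn and Myocd had an r of 0.94 (rho = 0.83), which was 0.72 without control 4 and 0.30 without control 1 and control 4, the 2 hearts farthest from the median. Of all features, 0.103% had a higher r with Smtn than Myocd did, and 0.392% a higher r with Myocd than Smtn did. Mylk had an r of 0.70 with Smtn and 0.66 with Myocd, which were 0.46 and 0.36 once each slide's mean was removed. Such values were common: 7.69% of all features had a higher r with Smtn than Mylk did, and 14.5% a higher r with Myocd. With Mylk itself, 9.73% had a higher r than Smtn and 13.2% a higher r than Myocd. Cnn1 and Myocd ran in opposite directions (r = -0.77, rho = -0.88), as did Actg2 and Myocd (-0.76). For Cnn1 and Myocd, 3.21% of all features had a lower r with Cnn1 and 10.4% a lower r with Myocd. For Actg2 and Myocd, the shares were 3.59% with Actg2 and 11.3% with Myocd. Each of these values rests on 8 arrays that share their slides, 4 of them on each.

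**Figure D5:**
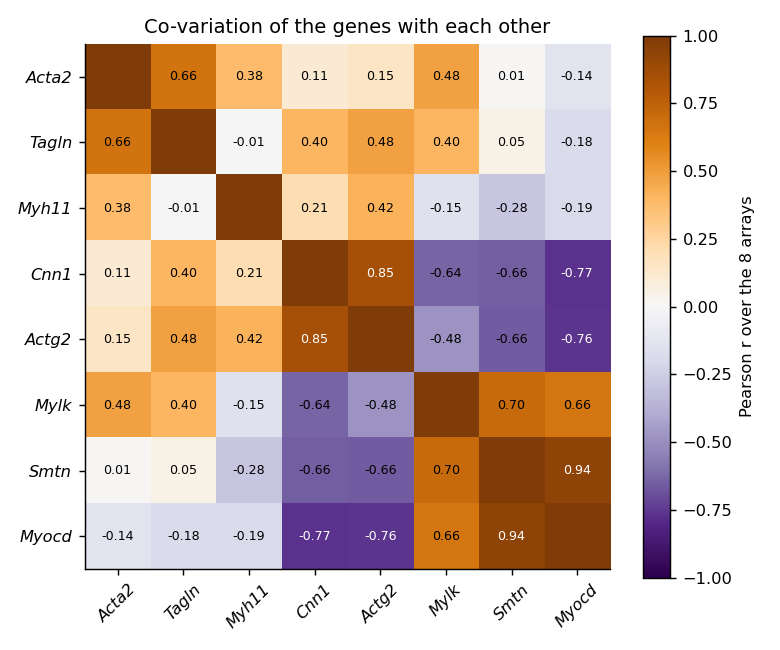
Pearson's r over the 8 arrays between each pair of the 8 measured genes (colour and number). Cnn1 and Actg2 form a positive block (0.85), Mylk, Smtn and Myocd another (0.66 to 0.94), and the values between these blocks are negative, from -0.48 to -0.77. Smtn is its probe with the higher signal, and its other probe was not used.

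Other genes of the contractile apparatus were taken from lists, which were chosen with earlier results of these data known. The counts for these lists are therefore a description and not an independent comparison. Within each list, genes were named by their order in it and not for how they moved. Of 14 further cytoskeletal genes of smooth muscle, 14 were measured and 0 passed the adjusted test, with 10 lower and 4 higher in dtg hearts and a median difference of -0.037. Among them were the tropomyosins Tpm1 (-0.022) and Tpm2 (-0.056) and the actin- and myosin-binding caldesmon Cald1 (0.039). Of 12 genes that set the phosphorylation of the myosin light chain, 0 passed, with 5 lower and 7 higher and a median of 0.014. They included the light chains Myl9 (-0.15, standard error 0.18) and Myl6 (-0.050) and the myosin phosphatase subunit Ppp1r12a (-0.034).

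Of 11 genes of SRF and myocardin control, 0 passed, with 5 lower and 6 higher and a median of 0.0098. Srf itself had a difference of -0.077 and Mrtfa, a myocardin-related coactivator, 0.075. Mrtfb, its relative, had 2.22, with control 1 at -7.67 and the other 7 hearts between 1.32 and 1.83. Of 10 receptors and channels of smooth muscle, 0 passed, with 5 in each direction and a median of -0.028. They included Kcnmb1, the smooth muscle subunit of the large-conductance potassium channel (-0.10), the integrin Itga8 (-0.22) and the angiotensin receptor Agtr1a (0.16). Of the 4 other actins, 0 passed, with values of -0.0094 for the cardiac Actc1, -0.39 (standard error 0.30) for the skeletal Acta1 and 0.12 for the cytoplasmic Actb. In these 5 lists limma gave 0 genes with an unadjusted p below 0.05 as well.

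Markers of other cell types were read beside these genes. Levels were summed on the linear scale, relative to the 75th percentile. The 8 smooth muscle genes came to between 49.8 and 55.3 in dtg hearts and between 51.8 and 60.8 in control hearts. Probes with the highest signal dominate such a sum. Here Smtn averaged 4.80 in dtg and 4.76 in control hearts on the log2 scale, against -0.90 and -0.62 for Myh11. A sum therefore does not measure how much of a cell type is present. The 8 pericyte markers came to between 32.5 and 38.5 in dtg hearts and between 27.7 and 35.9 in control hearts, with 6 higher and 2 lower in dtg hearts. Rgs5, a regulator of G protein signalling in pericytes, differed by -0.052 and the growth factor receptor Pdgfrb by -0.073. For endothelium the sums were 26.5 to 34.9 in dtg hearts and 28.4 to 34.8 in control hearts, and for fibroblasts 94.1 to 153 in dtg hearts and 93.3 to 149 in control hearts. Each of these 2 lists had 2 of 8 markers higher and 6 lower in dtg hearts, with -0.13 for the endothelial adhesion molecule Pecam1 and -0.030 for the cadherin Cdh5, and -0.014 for the fibroblast receptor Pdgfra and -0.050 for the collagen Col1a1. For the walls of large vessels, 5 of 6 markers were measured, all but Sost, with sums of 5.22 to 5.95 in dtg hearts and 4.69 to 7.09 in control hearts. Eln, which encodes elastin, differed by -0.30 and the elastic fibre protein Fbln5 by -0.037. Over all 9 cell type lists limma called 0 markers after adjustment, and 1 erythroid marker had an unadjusted p below 0.05.

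Atrial markers varied far more. Their sum ran from 68.5 to 498 in dtg hearts and from 58.5 to 645 in control hearts, with 8 of 8 lower in dtg hearts and a median difference of -0.62. That median was -2.61 within slide 2 and 1.38 within slide 1. The atrial light chains Myl7 (-1.02) and Myl4 (-0.82) had standard errors of 1.12 and 1.02. The markers were low in dtg 2, dtg 3 and control 2 and high in dtg 4, control 3 and control 4. The r of the atrial median with Acta2 was 0.65 and with Tagln 0.78, and 8 of the 8 atrial markers had a positive r with Acta2. The median r of the 8 atrial markers with Acta2 was 0.59, and 0.78 within the groups. The difference of Acta2 was -0.46 within slide 2 and -0.27 within slide 1, beside -2.61 and 1.38 for the atrial markers. The part of atrial tissue in the co-variation with Acta2 was not tested.

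Adipocyte markers followed other genes. Their sum was 88.8 to 100 in dtg hearts and 82.5 to 118 in control hearts, and Fabp4, a fatty acid binding protein, made up most of it. On the log2 scale Fabp4 averaged 6.54 in each group, against -3.05 in dtg hearts and -3.20 in control hearts for Adipoq. Of the adipocyte markers, 2 were higher and 5 lower in dtg hearts, among them the hormone Adipoq (0.15) and the lipid droplet protein Plin1 (-0.47). Their median had an r of 0.84 with Cnn1, -0.84 with Myocd and -0.81 with Smtn. For leukocyte markers, 6 of 7 measured, the sums were 27.1 to 35.4 in dtg hearts and 28.5 to 38.4 in control hearts. Their median had an r of 0.90 with Mylk, 0.86 with Smtn and 0.84 with Myocd. That median deviation lay between 0.019 and 0.35 on slide 1 and between -0.36 and -0.039 on slide 2. Between slides lay 57.5% of the variance of Mylk, 38.0% of Smtn and 38.9% of Myocd, and slide means were not removed here. Ptprc, the pan-leukocyte antigen, differed by 0.11 and the macrophage receptor Csf1r by 0.028. Of the erythroid markers, 4 of 6 were measured, all 4 higher in dtg hearts, with sums of 261 to 338 in dtg hearts and 156 to 306 in control hearts. The globins Hba-a1 and Hbb-b2 differed by 0.43 and 0.50, and 0 of the 4 had a positive r with Acta2. The median r of the 4 with Acta2 was -0.59, but -0.085 within the groups. The share of probes well above background had an r of -0.84 with Actg2, -0.73 with Cnn1 and -0.69 with Myh11. These values over 8 arrays are descriptions, and the part of each marker group and of array brightness in the values of the 8 genes was not tested.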

How the data were processed

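RNA of 4 dtg and 4 control hearts was labelled with Cy3 from 100 ng of total RNA, per the labels. Each scanner table deposited by the authors holds a processed intensity per spot, which per the file headers came from Agilent Feature Extraction 10.7.3.1. The authors also deposited log2 values, which matched quantile normalized log2 signal centred on each probe's median (r of 0.9999 to 1 per array). The medians of its columns were 0.00513, 0.0069, -0.0325 and -0.00939 for dtg hearts 1 to 4 and -0.0153, -0.0169, 0.0323 and 0.0179 for control hearts 1 to 4. Which tool made them is not stated in the labels or headers. They served as an alternative.

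After removal of control and outlier spots, replicate spots were averaged as log2 processed signal and scaled by subtracting the array's 75th percentile, taken over all spots outside the controls. Probes stayed in if well above background on at least 4 arrays, and the probe with the highest mean stood for a gene. Probes were named through RefSeq accessions in a GRCm38.p6 table (26372 of 39429). The array annotation names mm9. Tests were limma 3.58.1 in R 4.3.3 with Benjamini-Hochberg adjustment over 21434 features, and exact permutations of all orderings for the co-variation. On simulated data for dtg against control with 21406 genes, limma recovered 5.97% of 67 genes changed by 0.5, 34.3% of 67 changed by 1 and 78.8% of 66 changed by 2 on the log2 scale, with 6 false calls. The simulated noise was independent between genes, whereas the real arrays share slides, so these rates may not hold for these hearts.

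Members and lists were chosen with earlier results of these data known. Named are all 9 members, the first 3 kept members of each pathway list, the first 2 of each cell type list, and the 8 highest and 4 lowest r with Acta2. Sost was named because it was not measured, and Fabp4 because of its weight in the adipocyte sum.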

Additional observations from a re-analysis of the deposited data

Results flagged for a closer look

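The second Smtn probe was lowest in dtg 4, at 1.5498, where the other dtg hearts read 1.85, 1.87 and 1.91. The gap to the nearest of them made up 0.839 of the group's range, just above Dixon's critical value for 4 samples. It was the 1 case among 18 sets of 4 hearts checked, and chance flags about 1 set in 20.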

How the results depend on the processing

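No feature passed the adjusted test of dtg against control with limma in any setting tried, and 13 to 761 had an unadjusted p below 0.05. The median difference of the 8 genes (-0.096) was -0.30 within slide 2 and ran from -0.14 to 0.0062 when single hearts were left out. With normexp background correction it was -0.026, and 4 of the 8 genes were lower in dtg hearts. In that setting the differences of Tagln and Cnn1 turned positive (0.13 and 0.058). With the replicate number as a block 0 features were called. That block cannot change the median of -0.096, because each number holds a dtg and a control heart. Same-numbered hearts showed no common pattern of deviation (r = 0.54, -0.54, 0.15 and 0.16 for numbers 1 to 4). The hearts numbered 2 and those numbered 4 lay on different slides, and slide means were not removed. These values therefore cannot decide whether the numbers pair the hearts. The count of features called between slides (2210) was 0 with normexp, 1305 with quantile normalization, 1406 with probes above background on all arrays, 1291 with the deposited log2 values and 1096 to 2566 with single hearts left out. The median r with Acta2 (0.15) was 0.63 with median scaling, 0.54 without the 2 hearts farthest from the median of Acta2, and 0.0050 to 0.43 with single hearts left out. The differences of the 8 single genes were computed in 24 settings each, 192 values in all. Of these, 183 lay within 1 within-group SD of the main value and 27 had the other sign, none of them for Acta2 or Myh11. That SD describes single hearts and is wider than the error of a difference between means. Some settings, such as the slide block, the replicate block and the intensity trend, cannot change a difference and count among the 183. Leaving out dtg 4 and control 4 together, and control 4, dtg 3 and dtg 4 for the co-variation, was chosen after seeing the data. The causes were not tested. With 4 hearts a group, the number of arrays limits the precision, and Lmod1 was too dim to measure.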
